A study of Mus musculus with 55 samples.

Results

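The genes described here are 41 type I interferon stimulated genes, the antiviral and signalling genes that cells switch on when they sense an interferon. They were taken by name as rows of a count table of mouse liver RNA, and the sensors, the MHC genes and the GTPase families other than Mx were left out. All 41 were among the 24475 gene symbols of the table, and all 41 were among the 13311 genes that passed the filter on low counts. The members lie in 8 roles used below, and their levels were compared across 6 groups of livers made by 2 mouse stocks and 3 vectors.

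The OTC mice came from B6EiC3Sn a/A-Otcspf-ash/J, a stock whose variant of the X-linked gene Otc lowers ornithine transcarbamylase, a urea cycle enzyme. WT mice were the hybrid stock B6EiC3SnF1/J. Every mouse was male, received an adeno-associated virus (AAV) by vein at 4 months of age (week 0), was moved from chow to a 40% protein diet at week 2, and gave its liver at week 5 (labelled 5 months). The hairpin that the virus expressed targeted liver glutaminase (sh-Gls2) or glutamate dehydrogenase (sh-Glud1), or was a scrambled sequence (control). The libraries were 10 OTC sh-Gls2, 8 OTC sh-Glud1, 8 OTC control, 10 WT sh-Gls2, 9 WT sh-Glud1 and 10 WT control livers, each of a separate mouse. Each hairpin is represented by 1 vector, no group was without AAV or without the high-protein diet, and the promoter of the hairpins is not given in the sources used here. The stocks differ in background as well as in Otc, so a difference between OTC and WT livers belongs to the stock and cannot be assigned to Otc.

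Type I interferons are secreted proteins that bind the receptor pair Ifnar1 and Ifnar2 on nearly every cell. The receptor's kinases activate transcription factors, among them Stat2, which works with Irf9 in a complex that binds the interferon-stimulated response element (ISRE) of its target genes. The targets include inhibitors of viral RNA and protein synthesis, the ubiquitin-like protein Isg15 and its enzymes, and regulators such as Irf7, which amplifies the response, and Usp18, which damps it. In liver, hepatocytes, Kupffer cells and endothelial cells can all respond.

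The promoters below are shown because they carry the ISRE core in members that differ in their response. RefSeq (build GRCm38.p6) held promoter windows, 250 bases before to 50 bases after a gene's start, for 31 of the 41 members. The ISRE core, searched as GAAANNGAAA on both strands, was present in at least 1 window of 11 of these 31 members (35.5%), against 1079 of all 27025 genes with a window (3.99%). The gamma-activated site core, searched as TTCNNNGAA, which reads the same on both strands, was present in 7 of the 31 members (22.6%), against 9.55% of all genes. Both motifs were present in Ifitm3, Oas1a and Bst2. The 250 bases before the start are printed 5′ to 3′ on the gene's strand, with each ISRE core match in capitals. Isg15 (chr4:156200819-156201068, minus strand) has 3 overlapping matches that begin 78 to 66 bases before the start. Oas1a (chr5:120907526-120907775, minus strand) has 2 overlapping matches at 20 and 14 bases before it. Ifit1 (chr19:34640639-34640888, plus strand) has 2 separate matches at 104 and 85 bases, read on the other strand. Bst2 (chr8:71537473-71537722, minus strand) has 2 overlapping matches at 130 and 124 bases. Stat2 (chr10:128270248-128270497, plus strand), the member that was lower in OTC sh-Gls2 livers, has 1 match at 222 bases, read on the other strand.
Isg15: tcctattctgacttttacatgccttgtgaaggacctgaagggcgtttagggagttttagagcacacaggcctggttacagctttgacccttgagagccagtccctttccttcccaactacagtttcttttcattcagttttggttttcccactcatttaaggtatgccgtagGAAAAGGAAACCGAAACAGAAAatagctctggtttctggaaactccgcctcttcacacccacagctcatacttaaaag
Oas1a: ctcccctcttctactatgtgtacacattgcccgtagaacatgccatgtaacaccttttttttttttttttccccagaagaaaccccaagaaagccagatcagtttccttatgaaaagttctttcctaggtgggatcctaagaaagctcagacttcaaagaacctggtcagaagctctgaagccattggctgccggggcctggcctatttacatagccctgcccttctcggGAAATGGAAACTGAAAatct
Ifit1: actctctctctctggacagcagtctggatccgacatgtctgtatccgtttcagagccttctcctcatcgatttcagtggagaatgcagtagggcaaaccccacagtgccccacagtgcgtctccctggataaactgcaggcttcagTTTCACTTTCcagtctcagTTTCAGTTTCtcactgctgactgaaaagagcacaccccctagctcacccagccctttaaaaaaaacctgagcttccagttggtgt
Bst2: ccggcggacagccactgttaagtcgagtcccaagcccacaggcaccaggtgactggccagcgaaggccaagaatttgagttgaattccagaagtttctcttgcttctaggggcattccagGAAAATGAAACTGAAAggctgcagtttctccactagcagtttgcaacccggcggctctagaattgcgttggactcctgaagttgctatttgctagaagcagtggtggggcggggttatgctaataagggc
Stat2: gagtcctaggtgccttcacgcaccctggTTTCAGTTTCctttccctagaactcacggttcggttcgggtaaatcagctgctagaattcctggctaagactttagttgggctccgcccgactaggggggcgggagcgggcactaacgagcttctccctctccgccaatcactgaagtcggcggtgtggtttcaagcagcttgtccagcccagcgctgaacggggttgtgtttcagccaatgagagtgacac
A match is a description of these letters and not a binding site. In OTC sh-Gls2 against OTC control livers, 8 of the 11 members with the ISRE core and 15 of the 20 without it were higher by the test described below, 1 with the core (Stat2) was lower, and the median log2 fold changes were 0.63 with and 0.85 without it. Of all tested genes 20.2% were higher there. In WT sh-Gls2 against WT control livers, 9 of the 11 with the core and 17 of the 20 without it were higher, against 17.6% of all tested genes, and the medians were 0.95 with and 0.93 without it.

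The 55 libraries held 14489866 to 22781052 counts, and the median library held 18683991. Levels are given as CPM, counts scaled to library size with TMM factors, and each group is described by its lowest, median and highest library. Gls2 lay at 159, 201 and 236 CPM in OTC sh-Gls2 livers, against 332, 449 and 554 CPM in OTC control livers. It lay at 159, 198 and 255 CPM in WT sh-Gls2 livers, against 339, 438 and 578 CPM in WT control livers. Glud1 lay at 282, 456 and 588 CPM in OTC sh-Glud1 livers, against 892, 1058 and 1234 CPM in OTC control livers, and at 254, 374 and 583 CPM in WT sh-Glud1 livers, against 844, 1020.2 and 1212 CPM in WT control livers. Each targeted gene was below the range of its control group in every library of its hairpin, and Otc was at most 87.2 CPM in OTC livers and at least 472.6 CPM in WT livers. Alb, the albumin gene of hepatocytes, was at or above 49722 CPM in every library.

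Some libraries stood apart in the interferon genes. Within WT sh-Gls2, mouse 08 had the highest level of 32 of the 41 members, although it was highest in its group for 8.56% of all tested genes. Mouse 45 of the same group had the lowest level of 33 members, against 16.4% of all tested genes, and also the highest Gls2 level of the group at 255 CPM. In OTC sh-Glud1, mouse 58 was lowest for 37 members (18.2% of all tested genes), and in OTC control, mouse 03 was lowest for 30 members (24% of all tested genes).

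On the TPM scale, which corrects for gene length, the members spanned about 3 orders of magnitude. The median over all 55 libraries was 583.1 TPM for Ifitm3, a membrane protein that blocks viral fusion, 250.2 TPM for Bst2, which tethers budding virus to the cell, and 176 TPM for Ifi27. Lgals3bp (53.8 TPM) and Irf7 (52.2 TPM) came next and were close to each other. At the low end stood Mx1 (1.12 TPM), Oas2 (0.82 TPM) and Oas3 (0.46 TPM). The spread between mice of 1 group, as the SD of log2 CPM and its median over the 6 groups, was largest for Oas1a (0.635), Mx2 (0.625), Ifi44 (0.536) and Isg15 (0.522). It was smallest for Ifi35 (0.158), Parp12 (0.181) and Parp9 (0.19).

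The mean over the 41 members of log2(CPM + 0.5) gives each library 1 number for the whole set. It averaged 4.47 ± 0.21 in OTC sh-Gls2, 4.01 ± 0.40 in OTC sh-Glud1 and 3.83 ± 0.30 in OTC control livers (SD, n = 10, 8 and 8). It averaged 4.12 ± 0.33 in WT sh-Gls2, 3.42 ± 0.20 in WT sh-Glud1 and 3.26 ± 0.16 in WT control livers (SD, n = 10, 9 and 10). By these means sh-Gls2 was highest and control lowest in both stocks, and OTC livers lay above WT livers of the same vector. The ranges of sh-Gls2 and control livers overlapped in both stocks, as did those of sh-Glud1 and control livers and of OTC and WT livers of each vector. No test was made of this mean, since its genes were chosen with results of these data known.

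**Figure D1:**
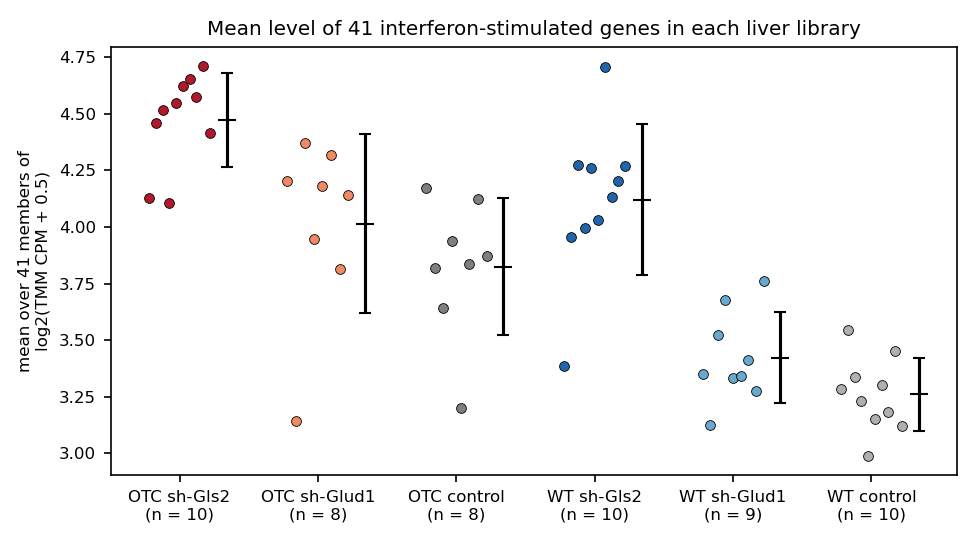
Mean over the 41 members of log2(TMM CPM + 0.5) in each library (y axis), by group (x axis); points are mice and the bar beside each group is mean ± SD. OTC sh-Gls2 averages 4.47 ± 0.21 and WT control 3.26 ± 0.16, and mouse 45 of WT sh-Gls2 (3.39) and mouse 58 of OTC sh-Glud1 (3.14) lie below the rest of their groups.

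Most members were higher with sh-Gls2 in both stocks. In OTC sh-Gls2 against OTC control livers, 28 of the 41 members were higher, 1 was lower and 12 were not called, with a median log2 fold change of 0.69. A member was called at an adjusted p below 0.05 in edgeR's quasi-likelihood test over all 13311 genes, of which 42.7% were called (20.2% higher, 22.6% lower) with a median log2 fold change of −0.02. In WT sh-Gls2 against WT control livers, 36 members were higher, none was lower and 5 were not called, with a median of 0.95. Over all genes 34.8% were called there (17.6% higher, 17.2% lower), with a median of −0.01. At an unadjusted p under 0.05, 38 members were higher and none lower in WT livers, and the DESeq2 Wald test called the same numbers as edgeR in both stocks. The 28 members higher in OTC livers were all among the 36 higher in WT livers, 100% of the OTC and 77.8% of the WT list. Of all 41 members 87.8% were in the WT list. Of the 2685 genes of any kind higher in OTC livers, 1750 (65.2%) were also higher in WT livers. The other 8 of the WT list were Usp18, Isg20, Ifit1, Oas1b, Mx2, Rtp4, Parp9 and Phf11d, of which Usp18 passed the test of the difference between stocks given below. Some of these 8 were called in OTC livers when 1 library was left out, Phf11d without OTC control mouse 03 (adjusted p = 0.00391), Ifit1 without OTC control mouse 46 (adjusted p = 0.0419), Isg20 without OTC control mouse 38 (adjusted p = 0.0469) and Rtp4 without OTC control mouse 38 or OTC sh-Gls2 mouse 50 or 60 (adjusted p = 0.0359 to 0.0475). Irf9, Irf1, Ifitm3 and Dtx3l were called in neither stock. The groups did not overlap in 8 members in OTC livers (6.74% of all genes, 3.59% being higher) and 8 in WT livers (4.76% of all genes, 2.88% being higher), with Parp12, Lgals3bp, Oasl2, Ifi27l2a and Samd9l in both sets. Whole liver was measured, so more cells of a type and more RNA per cell cannot be told apart here or below.

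**Figure D2:**
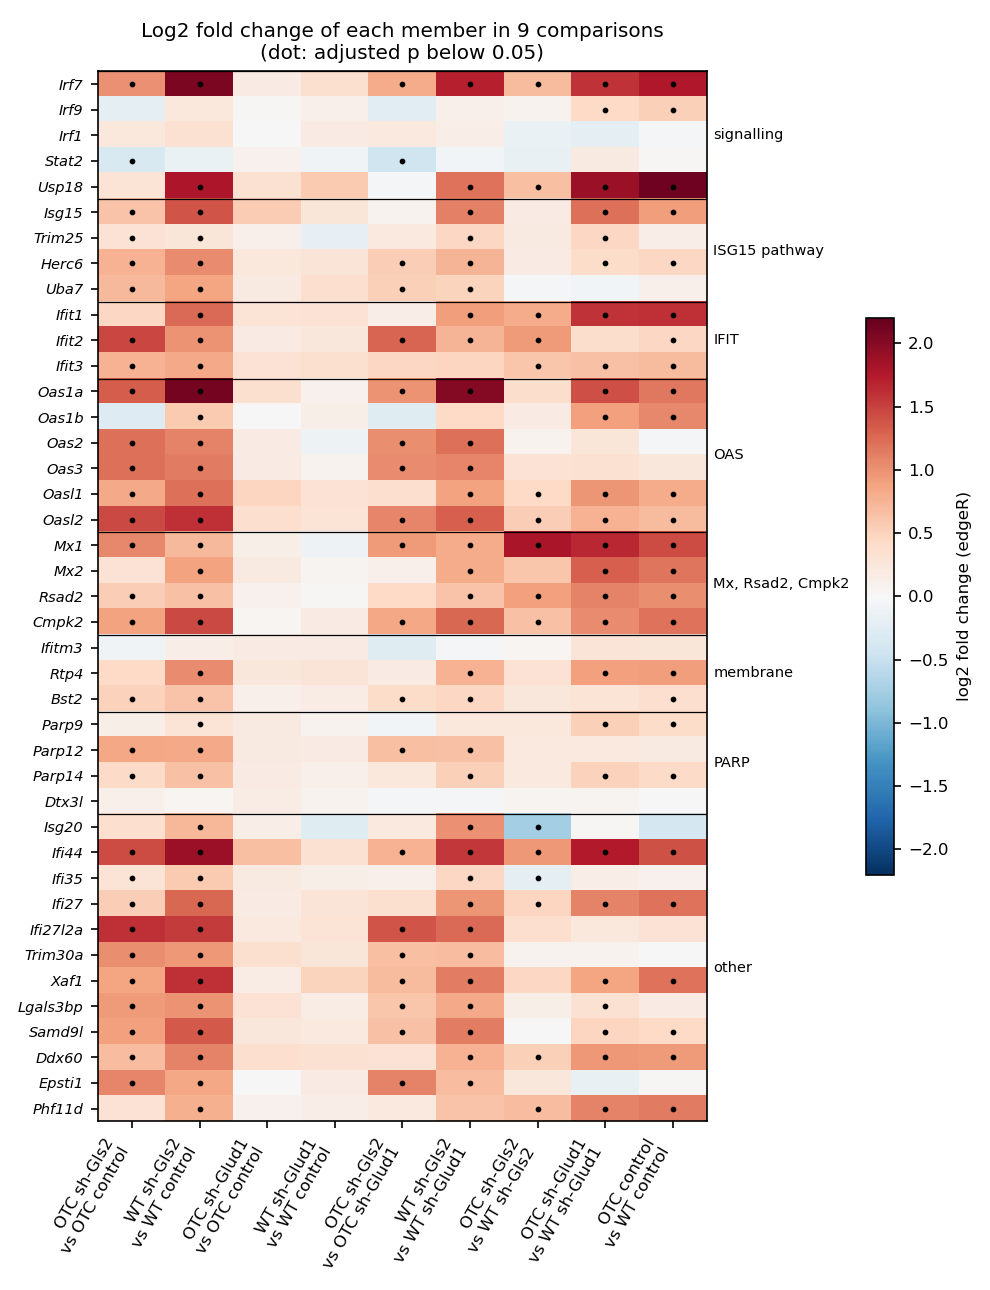
Log2 fold change (colour) of each of the 41 members (rows, by role) in 9 comparisons (columns, first-named group over second), with a dot where the adjusted p is below 0.05. The sh-Gls2 against control columns hold 28 and 36 members called higher, the sh-Glud1 against control columns hold none, and the OTC against WT columns hold 14 to 26.

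Among the genes of signalling and its control, the responses were mixed. Irf7, which raises interferon production and drives later targets, lay at 66.7, 112 and 170.2 CPM in OTC sh-Gls2 livers, against 34.3, 56.3 and 70.6 CPM in OTC control livers. It lay at 24.7, 70.3 and 117 CPM in WT sh-Gls2 livers, against 11.8, 15.6 and 25.2 CPM in WT control livers. In each stock 9 of the 10 sh-Gls2 livers were above the highest control liver. The log2 fold change was 1.01 ± 0.20, adjusted p = 6.1e-05 in OTC livers (± SE), and 2.06 ± 0.20, adjusted p = 2.39e-12 in WT livers, the smallest adjusted p of any member there. Usp18, the protease that removes Isg15 and blocks the interferon receptor, lay at 14.8, 21.7 and 27.5 CPM in OTC sh-Gls2 livers, against 12.7, 15.2 and 28.3 CPM in OTC control livers. In WT livers it lay at 4.47, 12.3 and 25.1 CPM with sh-Gls2, against 2.05, 3.87 and 5.02 CPM with control. In OTC livers no sh-Gls2 liver was above the highest control liver, and the difference was 0.30 ± 0.21, adjusted p = 0.249. The WT difference was 1.77 ± 0.22, adjusted p = 3.77e-09, with 9 of 10 livers above the control range.

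The members of the ISRE-binding complex did not follow Irf7. Stat2 lay at 40.95, 52.5 and 70.4 CPM in OTC sh-Gls2 livers, against 42.5, 69.5 and 95.2 CPM in OTC control livers, and at 48.5, 61.9 and 68.8 CPM in WT sh-Gls2 livers, against 44.4, 70.1 and 75.4 CPM in WT control livers. It was the only member called lower, by −0.34 ± 0.13, adjusted p = 0.0257 in OTC livers, with overlapping groups, and the WT difference was −0.14 ± 0.12, adjusted p = 0.389. The OTC call was lost without OTC sh-Gls2 mouse 50, without OTC control mouse 38, without the unnumbered OTC control mouse (adjusted p up to 0.1) and on the TPM scale. Irf9 lay at 27.8, 33.2 and 38.5 CPM in OTC sh-Gls2 livers, against 29.5, 39.7 and 41.5 CPM in OTC control livers. Levels in WT livers were 21.8, 30.7 and 42.1 CPM with sh-Gls2, against 21.3, 26.7 and 32.6 CPM with control, and 4 of 10 were above the control range. The differences of Irf9 were −0.22 ± 0.11, adjusted p = 0.0903 in OTC and 0.23 ± 0.10, adjusted p = 0.0721 in WT livers, of opposite sign and neither called. Irf9 was called lower in OTC livers without OTC control mouse 03 (adjusted p = 0.044) and higher in WT livers without WT sh-Gls2 mouse 45 or WT control mouse 10 or 19 (adjusted p = 0.0254 to 0.0468). Irf1, a factor that interferon gamma also induces, lay at 24.9, 31.7 and 43.6 CPM in OTC sh-Gls2 livers, against 17.1, 29.4 and 35.03 CPM in OTC control livers, and at 31.1, 35.2 and 41.4 CPM in WT sh-Gls2 livers, against 18.3, 30.1 and 34.9 CPM in WT control livers. Neither difference was called (0.23 ± 0.15, adjusted p = 0.229 in OTC, 0.33 ± 0.14, adjusted p = 0.0643 in WT livers). The ranges of Irf9 and Irf1 overlapped between sh-Gls2 and control in both stocks.

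**Figure D3:**
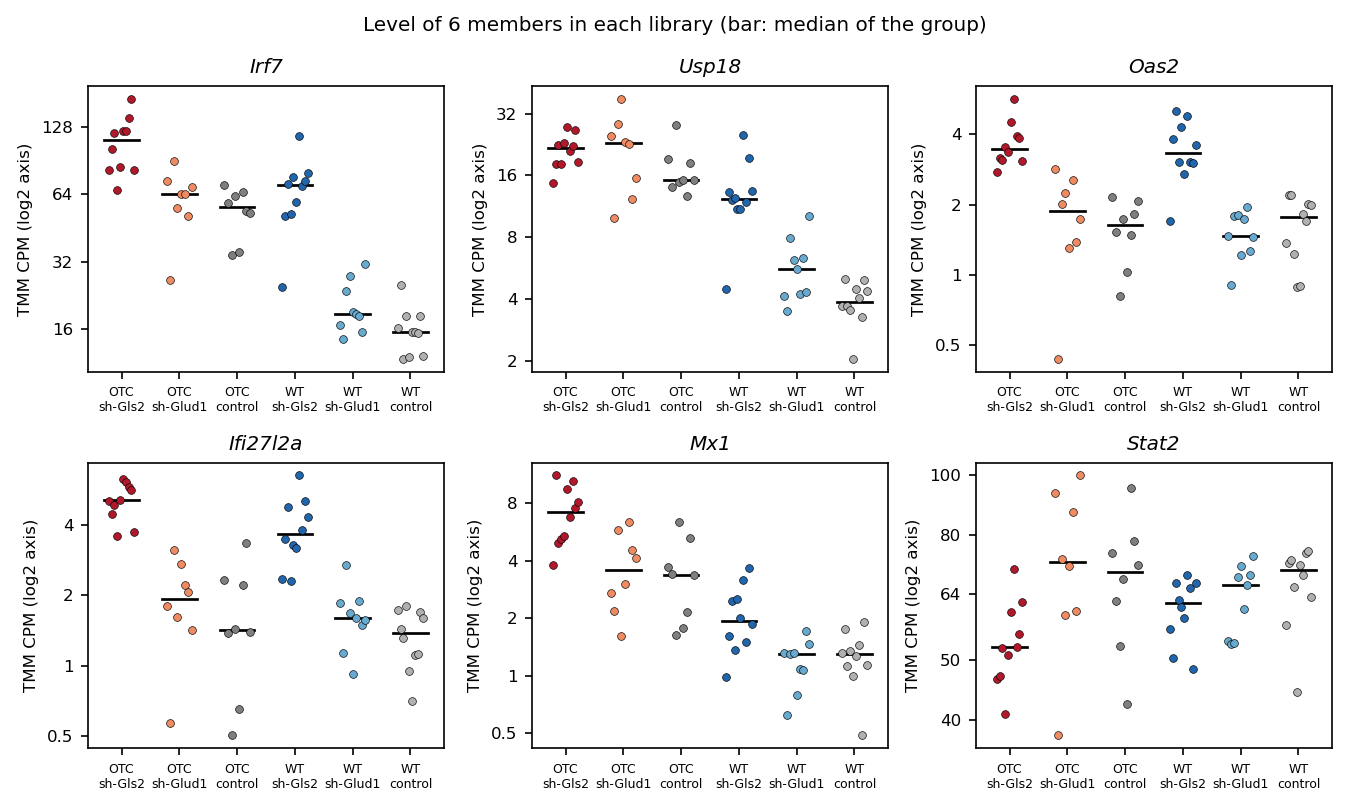
CPM of 6 members in each library (y axis, log2 scale) by group (x axis); points are mice and the bar is the median of the group. Irf7, Oas2 and Ifi27l2a have higher medians with sh-Gls2 in both stocks, Usp18 and Mx1 have higher medians in OTC than in WT control livers, and Stat2 has its lowest median (52.5 CPM) in OTC sh-Gls2.

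All 4 genes of the Isg15 pathway, in which Isg15 is joined to target proteins, were higher in both stocks. Isg15 itself lay at 7.87, 18.3 and 25.1 CPM in OTC sh-Gls2 livers, against 3.3, 12.1 and 18.98 CPM in OTC control livers, and 4 of 10 were above the control range. In WT livers it lay at 7.72, 14.3 and 33.6 CPM with sh-Gls2, against 3.92, 6.09 and 10.5 CPM with control, and 9 of 10 were above the control range. The differences were 0.63 ± 0.25, adjusted p = 0.0361 in OTC and 1.38 ± 0.24, adjusted p = 1.05e-05 in WT livers. The OTC call was lost in 6 of 18 omissions of 1 library (OTC sh-Gls2 mice 04, 21, 31 and 49, and OTC control mouse 03 and the unnumbered mouse, adjusted p up to 0.0965). Uba7, the enzyme that activates Isg15, lay at 10.4, 14.5 and 16.7 CPM in OTC sh-Gls2 livers, against 2.97, 8.64 and 11.9 CPM in OTC control livers, and 8 of 10 were above the control range. Levels in WT livers were 9.79, 14.8 and 18.2 CPM with sh-Gls2, against 6.72, 8.05 and 9.11 CPM with control, with no overlap. The difference of Uba7 was 0.72 ± 0.16, adjusted p = 1.84e-04 in OTC and 0.87 ± 0.15, adjusted p = 5.74e-06 in WT livers. Herc6, the ligase that attaches Isg15 in mice, lay at 23.1, 29.3 and 36.8 CPM in OTC sh-Gls2 livers, against 8.86, 18.7 and 21.7 CPM in OTC control livers, and at 16.5, 24.4 and 37.4 CPM in WT sh-Gls2 livers, against 9.55, 12.2 and 17.6 CPM in WT control livers. The OTC groups did not overlap (0.76 ± 0.15, adjusted p = 5.72e-05), and 9 of 10 WT livers were above the control range (1.03 ± 0.14, adjusted p = 8.6e-08). Trim25, a ubiquitin ligase of the RNA sensing pathway, lay at 91.1, 108 and 128 CPM in OTC sh-Gls2 livers, against 65.3, 82.9 and 111 CPM in OTC control livers, and at 71.6, 94.8 and 107 CPM in WT sh-Gls2 livers, against 61.9, 75.7 and 98.97 CPM in WT control livers. Its changes were the smallest of the 4 (0.32 ± 0.09, adjusted p = 0.00459 in OTC, 0.27 ± 0.09, adjusted p = 0.0135 in WT livers), and 2 of 10 livers were above the control range in each stock. Without both OTC control mice 03 and 67 the OTC call of Isg15 was lost (adjusted p = 0.139), and without these and WT control mouse 13 that of Trim25 was lost (adjusted p = 0.0544).

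The IFIT genes, whose proteins bind viral RNA lacking host cap marks, were higher in 2 of 3 members in OTC and in all 3 in WT livers. Ifit2 lay at 8.21, 12.8 and 16.97 CPM in OTC sh-Gls2 livers, against 2.59, 4.28 and 7.22 CPM in OTC control livers, with no overlap (1.47 ± 0.18, adjusted p = 2.12e-09). It lay at 3.62, 6.21 and 9.5 CPM in WT sh-Gls2 livers, against 2.27, 3.4 and 4.07 CPM in WT control livers (0.99 ± 0.17, adjusted p = 6.28e-06). It was among the 10 members with a larger log2 fold change in OTC than in WT livers. Ifit1 lay at 17.05, 33.6 and 42.1 CPM in OTC sh-Gls2 livers, against 9.51, 21.8 and 36.1 CPM in OTC control livers, a difference that was not called (0.45 ± 0.23, adjusted p = 0.106). In WT livers it lay at 7.11, 16.2 and 36.4 CPM with sh-Gls2, against 4.56, 6.79 and 12.6 CPM with control (1.24 ± 0.23, adjusted p = 1.87e-05), and 8 of 10 were above the control range. Ifit3 lay at 15.8, 24.8 and 34.1 CPM in OTC sh-Gls2 livers, against 4.32, 14.8 and 25.2 CPM in OTC control livers, and at 9.27, 15.96 and 24.9 CPM in WT sh-Gls2 livers, against 6.71, 8.66 and 13.1 CPM in WT control livers. It was higher in both stocks (0.77 ± 0.21, adjusted p = 0.00317 in OTC, 0.84 ± 0.21, adjusted p = 0.00108 in WT livers), with 5 of 10 OTC and 9 of 10 WT livers above the control range. Ifit1 and Ifit3 belong to a cluster of similar genes that can share reads, as do Oas1a and Oas1b, Mx1 and Mx2, Trim30a and Phf11d with their close relatives, so single values of these genes are uncertain.

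Of the 6 OAS genes, whose enzymes make the second messenger that activates RNase L or resemble those that do, 5 rose in OTC and 6 in WT livers. Oas1a, an active synthetase, lay at 5.85, 11.02 and 20.3 CPM in OTC sh-Gls2 livers, against 1.57, 4.67 and 7.45 CPM in OTC control livers (1.34 ± 0.30, adjusted p = 2.83e-04). In WT livers Oas1a lay at 1.88, 8.83 and 21.05 CPM with sh-Gls2, against 1.07, 2.07 and 3.19 CPM with control. The WT log2 fold change was the largest of any member, 2.11 ± 0.30, adjusted p = 1.29e-07, and 9 of 10 livers were above the control range in each stock. Oas2 lay at 2.77, 3.45 and 5.66 CPM in OTC sh-Gls2 livers, against 0.817, 1.63 and 2.15 CPM in OTC control livers, with no overlap. Levels in WT livers were 1.69, 3.32 and 5.04 CPM with sh-Gls2, against 0.892, 1.77 and 2.2 CPM with control, and 9 of 10 were above the control range. Its differences were close in both stocks, 1.21 ± 0.22, adjusted p = 1.19e-05 in OTC and 1.10 ± 0.20, adjusted p = 2.44e-05 in WT livers, and so were those of Oas3, 1.22 ± 0.23, adjusted p = 3.11e-05 in OTC and 1.15 ± 0.22, adjusted p = 5.27e-05 in WT livers. Oasl2 lay at 6.29, 10.1 and 12.9 CPM in OTC sh-Gls2 livers, against 2.65, 3.09 and 5.2 CPM in OTC control livers, and at 3.29, 6.4 and 13.3 CPM in WT sh-Gls2 livers, against 1.53, 2.03 and 3.19 CPM in WT control livers. It did not overlap in either stock (1.45 ± 0.20, adjusted p = 7.9e-08 in OTC, 1.60 ± 0.20, adjusted p = 3.34e-09 in WT livers). Oasl1, which restrains translation of Irf7, lay at 17.1, 30.7 and 39.9 CPM in OTC sh-Gls2 livers, against 12.9, 17.05 and 21.1 CPM in OTC control livers, with 9 of 10 above the control range (0.84 ± 0.18, adjusted p = 1.71e-04). It lay at 13.9, 22.2 and 34.6 CPM in WT sh-Gls2 livers, against 4.77, 10.1 and 13.9 CPM in WT control livers, with no overlap (1.21 ± 0.17, adjusted p = 1.8e-07). Oas1b, annotated as a polymorphic pseudogene, was not called in OTC livers (−0.29 ± 0.20, adjusted p = 0.253), where 5 of 10 sh-Gls2 livers were below the lowest control liver, and was higher in WT livers (0.58 ± 0.20, adjusted p = 0.0204).

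The Mx proteins are GTPases that trap viral components, and Rsad2 and its neighbour Cmpk2 make and prepare an antiviral nucleotide. Cmpk2 lay at 13.5, 25.2 and 31.5 CPM in OTC sh-Gls2 livers, against 4.43, 12.3 and 21.5 CPM in OTC control livers (0.89 ± 0.24, adjusted p = 0.00268), and at 8.99, 15.3 and 25.1 CPM in WT sh-Gls2 livers, against 2.33, 5.08 and 9.02 CPM in WT control livers (1.45 ± 0.24, adjusted p = 3.76e-06). Of the sh-Gls2 livers, 6 of 10 OTC and 9 of 10 WT livers were above the control range. Mx1 lay at 3.79, 7.16 and 11.2 CPM in OTC sh-Gls2 livers, against 1.63, 3.37 and 6.4 CPM in OTC control livers (1.06 ± 0.25, adjusted p = 4.98e-04). In WT livers Mx1 lay at 0.988, 1.93 and 3.64 CPM with sh-Gls2, against 0.487, 1.29 and 1.9 CPM with control (0.71 ± 0.26, adjusted p = 0.0301). Mx1 was above the control range in 6 of 10 OTC and 5 of 10 WT livers. Mx2, annotated as a polymorphic pseudogene, lay at 13.3, 29.04 and 44.4 CPM in OTC sh-Gls2 livers, against 10.8, 21.6 and 44.9 CPM in OTC control livers, and at 3.53, 19.3 and 30.1 CPM in WT sh-Gls2 livers, against 5.13, 10.6 and 14.5 CPM in WT control livers. It was not called in OTC livers (0.32 ± 0.30, adjusted p = 0.411) and differed by 0.88 ± 0.29, adjusted p = 0.0149 in WT livers. Rsad2 lay at 22.2, 33.5 and 48.05 CPM in OTC sh-Gls2 livers, against 12.8, 23.7 and 33.6 CPM in OTC control livers, with 5 of 10 above the control range. In WT livers it lay at 9.22, 16.4 and 39.1 CPM with sh-Gls2, against 7.58, 9.94 and 17.8 CPM with control, with 4 of 10 above the control range. Its differences were 0.53 ± 0.21, adjusted p = 0.0363 in OTC and 0.65 ± 0.20, adjusted p = 0.0107 in WT livers. The WT calls of Mx1, Rsad2, Parp9 and Phf11d were each lost without WT sh-Gls2 mouse 08 (adjusted p up to 0.0802, 0.0676, 0.0551 and 0.0588). That of Mx1 was also lost without WT sh-Gls2 mouse 79 or WT control mouse 11, and that of Parp9 without WT control mouse 28. The OTC call of Rsad2 was lost in 7 of 18 omissions (OTC sh-Gls2 mice 04, 21 and 49, and OTC control mice 03, 67, 72 and the unnumbered mouse, adjusted p up to 0.0901), and without both OTC control mice 03 and 67 (adjusted p = 0.172).

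Of the membrane proteins, Bst2 lay at 119, 143 and 175 CPM in OTC sh-Gls2 livers, against 49.99, 109 and 128 CPM in OTC control livers, and 9 of 10 were above the control range. Levels in WT livers were 79.3, 122 and 176 CPM with sh-Gls2, against 62.8, 80.2 and 92.99 CPM with control, again with 9 of 10 above. Its differences were 0.50 ± 0.13, adjusted p = 0.002 in OTC and 0.63 ± 0.13, adjusted p = 8.78e-05 in WT livers. Rtp4, a chaperone of membrane receptors, lay at 16.4, 24.5 and 31.3 CPM in OTC sh-Gls2 livers, against 7.03, 18.2 and 24.7 CPM in OTC control livers, and at 9.6, 18.8 and 37.1 CPM in WT sh-Gls2 livers, against 6.45, 9.58 and 12.7 CPM in WT control livers. It was not called in OTC livers (0.44 ± 0.20, adjusted p = 0.0659) and differed by 1.04 ± 0.19, adjusted p = 1.73e-05 in WT livers. Rtp4 overlaps Masp1, a liver gene on the other strand, and Irf7 overlaps Phrf1 on the other strand. The strand setting of the counting is not given in the sources used here, so the reads of such pairs cannot be told apart. The annotation of Irf9 overlaps that of Rnf31 on the same strand, where a strand setting would not part the reads. Ifitm3, the most abundant member, lay at 142, 210.3 and 242 CPM in OTC sh-Gls2 livers, against 134, 218 and 264 CPM in OTC control livers. In WT livers it lay at 123, 191 and 268 CPM with sh-Gls2, against 149, 179 and 216 CPM with control. The groups overlapped widely, and the gene was not called in either stock (−0.08 ± 0.12, adjusted p = 0.605 in OTC, 0.15 ± 0.11, adjusted p = 0.332 in WT livers).

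The PARP genes encode ADP-ribose transferases and their partners. Parp12 lay at 54.7, 70.9 and 78.6 CPM in OTC sh-Gls2 livers, against 30.05, 38.1 and 43.3 CPM in OTC control livers, and at 42.03, 59.5 and 68.9 CPM in WT sh-Gls2 livers, against 28.3, 32.6 and 40.3 CPM in WT control livers. The groups did not overlap in either stock, and the differences of 0.85 ± 0.10, adjusted p = 3.3e-10 in OTC, the smallest adjusted p of any member there, and 0.83 ± 0.09, adjusted p = 8.78e-11 in WT livers were almost equal. Parp14 lay at 47.8, 64.4 and 70.5 CPM in OTC sh-Gls2 livers, against 27.99, 47.9 and 58.7 CPM in OTC control livers, and at 32.7, 55.7 and 68.8 CPM in WT sh-Gls2 livers, against 29.02, 32.6 and 45.96 CPM in WT control livers. It was above the control range in 8 of 10 OTC and 9 of 10 WT livers (0.42 ± 0.12, adjusted p = 0.00286 in OTC and 0.64 ± 0.11, adjusted p = 6.97e-06 in WT livers). Parp9 and Dtx3l form a complex and are transcribed from neighbouring starts on opposite strands of chromosome 16, where their annotations overlap. Dtx3l lay at 49.2, 55.8 and 63.1 CPM in OTC sh-Gls2 livers, against 33.02, 52.9 and 61.6 CPM in OTC control livers, and at 45.98, 54.2 and 62.4 CPM in WT sh-Gls2 livers, against 41.2, 52.1 and 63.5 CPM in WT control livers. It overlapped and was called in neither stock (0.10 ± 0.10, adjusted p = 0.411 in OTC, 0.04 ± 0.09, adjusted p = 0.792 in WT livers). Parp9 lay at 55.1, 60.2 and 80.8 CPM in OTC sh-Gls2 livers, against 43.6, 58.4 and 65.5 CPM in OTC control livers, and at 46.1, 54.4 and 71.6 CPM in WT sh-Gls2 livers, against 27.6, 45.3 and 55.2 CPM in WT control livers. It was not called in OTC livers (0.14 ± 0.11, adjusted p = 0.321) and differed by 0.30 ± 0.10, adjusted p = 0.0183 in WT livers.

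Of the remaining 12 members, 10 rose in OTC livers, all but Isg20 and Phf11d, and 12 rose in WT livers. Ifi27l2a, a small membrane protein of the Ifi27 family, lay at 3.59, 5.09 and 6.27 CPM in OTC sh-Gls2 livers, against 0.502, 1.42 and 3.34 CPM in OTC control livers. Levels in WT livers were 2.31, 3.65 and 6.51 CPM with sh-Gls2, against 0.707, 1.38 and 1.79 CPM with control. It had the largest log2 fold change of any member in OTC livers (1.60 ± 0.24, adjusted p = 5.56e-07) and a similar one in WT livers (1.54 ± 0.23, adjusted p = 5.53e-07), with no overlap in either. Ifi44 lay at 8.36, 14.6 and 24.9 CPM in OTC sh-Gls2 livers, against 2.81, 5.12 and 9.22 CPM in OTC control livers (1.43 ± 0.28, adjusted p = 4.66e-05), and at 3.15, 8.1 and 17.4 CPM in WT sh-Gls2 livers, against 1.51, 1.94 and 3.38 CPM in WT control livers (1.88 ± 0.28, adjusted p = 5.47e-07). Ifi27 lay at 103, 144 and 192 CPM in OTC sh-Gls2 livers, against 59.2, 103 and 133 CPM in OTC control livers (0.54 ± 0.18, adjusted p = 0.0113), and at 39.3, 105 and 142 CPM in WT sh-Gls2 livers, against 29.01, 45.03 and 54.95 CPM in WT control livers (1.26 ± 0.17, adjusted p = 3.11e-08). Ifi44 was above the control range in 9 of 10 OTC and 8 of 10 WT livers, and Ifi27 in 6 of 10 OTC and 9 of 10 WT livers. The OTC call of Ifi27 was lost without both OTC control mice 03 and 67 (0.38, adjusted p = 0.0942). Xaf1, a promoter of cell death, lay at 7.03, 12.5 and 19.02 CPM in OTC sh-Gls2 livers, against 3.19, 7.23 and 9.33 CPM in OTC control livers (0.87 ± 0.21, adjusted p = 6.55e-04), and at 3.77, 9.38 and 14.2 CPM in WT sh-Gls2 livers, against 2.31, 2.86 and 4.31 CPM in WT control livers (1.61 ± 0.21, adjusted p = 1.17e-08). Lgals3bp, a secreted glycoprotein that binds galectins, lay at 86.9, 111 and 132 CPM in OTC sh-Gls2 livers, against 31.2, 60.3 and 72.1 CPM in OTC control livers. Its differences of 0.93 ± 0.11, adjusted p = 2.73e-09 in OTC and 0.99 ± 0.11, adjusted p = 9.44e-11 in WT livers came without overlap in either stock. Samd9l, an inhibitor of translation, also did not overlap in either stock (0.90 ± 0.16 in OTC and 1.34 ± 0.16 in WT livers). The remaining members of the role, Trim30a, Ddx60, Epsti1, Isg20, Phf11d and Ifi35, had log2 fold changes from 0.58 (Ifi35) to 1.09 (Ddx60) in WT livers, and Ifi35 did not overlap there. Phf11d, described here after its values were seen, lay at 2.77, 4.1 and 5.43 CPM in OTC sh-Gls2 livers, against 1.77, 2.41 and 10.1 CPM in OTC control livers, and the highest control value was that of mouse 03. The other 7 OTC control livers lay between 1.77 and 2.95 CPM. With mouse 03 the OTC difference of Phf11d was not called (0.31 ± 0.26, adjusted p = 0.357), and without it the difference was 0.81 (adjusted p = 0.00391).

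The same direction was seen when sh-Gls2 was set against sh-Glud1, so that both groups carried a hairpin against a liver enzyme. The sh-Gls2 livers are the same as in the comparisons with control, so the results are not independent of those. In OTC livers 19 members were higher and 1, Stat2, was lower, with a median log2 fold change of 0.40, against 40.5% of all genes called (19.5% higher, 21.1% lower). In WT livers 32 were higher and none lower (36 and none at an unadjusted p under 0.05, and 32 and none by DESeq2), with a median of 0.76, against 29.6% of all genes called (15.5% higher). Ifit2 lay at 8.21, 12.8 and 16.97 CPM in OTC sh-Gls2 livers, against 2.76, 5.45 and 6.49 CPM in OTC sh-Glud1 livers, with no overlap and the smallest adjusted p in OTC livers (1.29 ± 0.18, adjusted p = 5.51e-08). Parp12 (0.66 ± 0.09, adjusted p = 1.77e-07) and Ifi27l2a (1.38 ± 0.24, adjusted p = 7.63e-06) followed, and Ifi27l2a had the largest difference. Stat2 lay at 40.95, 52.5 and 70.4 CPM in OTC sh-Gls2 livers, against 37.8, 72.2 and 99.9 CPM in OTC sh-Glud1 livers (−0.43 ± 0.13, adjusted p = 0.00473). Usp18 and Isg15 had close medians in the OTC groups, 21.7 CPM with sh-Gls2 and 23.1 CPM with sh-Glud1 for Usp18, and 18.3 CPM with sh-Gls2 and 19 CPM with sh-Glud1 for Isg15, and neither was called (−0.04 ± 0.21 and 0.07 ± 0.25). Oas1a lay at 1.88, 8.83 and 21.05 CPM in WT sh-Gls2 livers, against 1.38, 2.05 and 3.48 CPM in WT sh-Glud1 livers, and had the largest difference there, as against control (2.02 ± 0.31, adjusted p = 8.67e-07). Irf7 had the smallest adjusted p in WT livers (1.71 ± 0.20, adjusted p = 1.62e-09), followed by Lgals3bp (0.83 ± 0.11, adjusted p = 3.19e-08) and Parp12 (0.65 ± 0.09, adjusted p = 1.48e-07). The groups did not overlap for 5 members in OTC (6.36% of all genes, 3.33% being higher and 3.04% lower) and 3 in WT livers (6.18% of all genes, 3.51% being higher), all of them higher with sh-Gls2. Without OTC sh-Glud1 mouse 58, 18 members were higher and 3 lower in OTC livers, and the calls of Bst2 and Ifi44 were lost (adjusted p = 0.0533 and 0.0573). Without it Phf11d was called higher (adjusted p = 0.0265) and Irf9 and Ifitm3 were called lower (adjusted p = 0.00602 and 0.0109). In WT livers the call of Rsad2 was lost without WT sh-Gls2 mouse 08 (adjusted p = 0.102), that of Mx1 without mouse 79 (adjusted p = 0.0533), and that of Mx2 in 6 of 19 omissions (WT sh-Gls2 mice 08, 14 and 36 and WT sh-Glud1 mice 57, 69 and 70, adjusted p up to 0.0733).

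With sh-Glud1 against control, no member was called in either stock by edgeR, by DESeq2 or by limma on TPM. In OTC livers 39 of the 41 log2 fold changes were above 0, with a median of 0.19, and 5 had an unadjusted p under 0.05, all higher. In WT livers 36 were above 0, with a median of 0.18, and 4 had an unadjusted p under 0.05, of which 3 were higher. Over all genes 0.0150% were called in OTC and 0.0225% in WT livers, so few calls of any gene were made in these comparisons. The shares of all genes above 0 or at an unadjusted p under 0.05 are not given here. The member counts by sign and unadjusted p are therefore not read as a result. The largest difference in OTC livers was that of Ifi44, at 2.06, 9.51 and 15.2 CPM with sh-Glud1, against 2.81, 5.12 and 9.22 CPM with control (0.67 ± 0.29, adjusted p = 0.988). The largest in WT livers was that of Usp18, at 3.51, 5.62 and 10.2 CPM with sh-Glud1, against 2.05, 3.87 and 5.02 CPM with control (0.57 ± 0.23, adjusted p = 0.896), and 5 of 9 livers were above the control range. Irf7 lay at 26.5, 64.1 and 90.5 CPM in OTC sh-Glud1 livers, against 34.3, 56.3 and 70.6 CPM in OTC control livers, and at 14.4, 18.8 and 31.2 CPM in WT sh-Glud1 livers, against 11.8, 15.6 and 25.2 CPM in WT control livers. Its differences were 0.19 ± 0.21 in OTC and 0.36 ± 0.20 in WT livers. The lack of calls does not show equal levels, since the median standard error of a member was 0.21 in OTC and 0.20 in WT livers on the log2 scale, about the size of the differences. Leaving out any single library, OTC sh-Glud1 mouse 58 included, gave no call in either stock.

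The stocks themselves differed in these genes without any hairpin against an enzyme. In OTC control against WT control livers, 26 members were higher and none lower, with a median log2 fold change of 0.45, while 36.3% of all genes were called (19.9% higher, 16.4% lower). The count of lower members was also 0 at an unadjusted p under 0.05, where 28 were higher, and by DESeq2, which called 26. The groups did not overlap for Irf7, Usp18, Ifi27 and Oas1b (4 members, 3.41% of all genes). Usp18 had the largest difference, at 12.7, 15.2 and 28.3 CPM in OTC control livers, against 2.05, 3.87 and 5.02 CPM in WT control livers (2.14 ± 0.23, adjusted p = 3.85e-10). Irf7 followed, at 34.3, 56.3 and 70.6 CPM in OTC control livers, against 11.8, 15.6 and 25.2 CPM in WT control livers (1.75 ± 0.20, adjusted p = 3.06e-09). Ifit1 came next, at 9.51, 21.8 and 36.1 CPM in OTC control livers, against 4.56, 6.79 and 12.6 CPM in WT control livers (1.61 ± 0.23, adjusted p = 5.25e-07), with 7 of 8 OTC livers above the WT range. Ifi27 lay at 59.2, 103 and 133 CPM in OTC control livers, against 29.01, 45.03 and 54.95 CPM in WT control livers (1.20 ± 0.17, adjusted p = 5.25e-07). Mx1 (1.44 ± 0.27), Cmpk2 (1.19 ± 0.25), Rsad2 (1.02 ± 0.21) and Mx2 (1.18 ± 0.30) were all higher, so the whole Mx, Rsad2 and Cmpk2 group and all 3 IFIT genes rose. Irf9 was higher in OTC control livers, at 29.5, 39.7 and 41.5 CPM, against 21.3, 26.7 and 32.6 CPM in WT control livers (0.52 ± 0.11, adjusted p = 1.25e-04). Members with small differences included Oas2 (−0.04 ± 0.22), Trim30a (0.00 ± 0.20), Epsti1 (0.03 ± 0.22), Stat2 (0.03 ± 0.13) and Dtx3l (−0.01 ± 0.10), and Isg20 had the lowest value (−0.38 ± 0.20, adjusted p = 0.125).

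Without OTC control mice 03 and 67, 27 members were higher in OTC control than in WT control livers, but the call of Phf11d was lost (adjusted p up to 0.108). The calls of Bst2, Ifit2 and Samd9l were lost in 4, 9 and 9 of 18 omissions of 1 library. Those of Bst2 were the omissions of OTC control mice 35, 38 and 46 and of WT control mouse 41 (adjusted p up to 0.0779). Those of Ifit2 were OTC control mice 35, 38, 43 and 46 and WT control mice 02, 11, 13, 28 and 41 (adjusted p up to 0.177). Those of Samd9l were OTC control mice 38, 46, 72 and the unnumbered mouse and WT control mice 07, 20, 28, 41 and 77 (adjusted p up to 0.0859).

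The difference between stocks was similar in the sh-Glud1 livers, which share no library with the control livers. In OTC sh-Glud1 against WT sh-Glud1 livers, 26 members were higher and none lower (30 and none at an unadjusted p under 0.05, and 26 and none by DESeq2), with a median of 0.50. Of all genes 19.9% were called higher and 15.1% lower there. Usp18 lay at 9.98, 23.1 and 37.7 CPM in OTC sh-Glud1 livers, against 3.51, 5.62 and 10.2 CPM in WT sh-Glud1 livers (1.90 ± 0.23, adjusted p = 7.43e-09). Irf7 lay at 26.5, 64.1 and 90.5 CPM in OTC sh-Glud1 livers, against 14.4, 18.8 and 31.2 CPM in WT sh-Glud1 livers (1.58 ± 0.21, adjusted p = 7.19e-08), and Ifit1 differed by 1.59 ± 0.24, adjusted p = 1.2e-06. In each of these 3 members 7 of the 8 OTC livers were above the WT range. Rsad2 was the 1 member without overlap (4.88% of all genes had none), at 14.9, 24.9 and 34.98 CPM in OTC sh-Glud1 livers, against 8.4, 10.8 and 14.6 CPM in WT sh-Glud1 livers (1.09 ± 0.22, adjusted p = 1.3e-04). Irf1 had the lowest value (−0.22 ± 0.15, adjusted p = 0.28). The call of Ifit3 was lost without OTC sh-Glud1 mouse 42 (adjusted p = 0.0665). That of Herc6 was lost in 11 of 17 omissions (OTC sh-Glud1 mice 23, 42, 53, 65 and 71 and WT sh-Glud1 mice 15, 32, 37, 40, 69 and 70, adjusted p up to 0.139). That of Samd9l was lost in 6 of them (OTC sh-Glud1 mice 23 and 71 and WT sh-Glud1 mice 32, 37, 69 and 70, adjusted p up to 0.107). Without OTC sh-Glud1 mouse 58, 30 members were higher.

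With sh-Gls2 the stocks also differed in some members. In OTC sh-Gls2 against WT sh-Gls2 livers, 14 members were higher and 2 lower, with a median of 0.25, while 29.5% of all genes were called (14.5% higher, 14.9% lower). Mx1 differed most, at 3.79, 7.16 and 11.2 CPM in OTC sh-Gls2 livers, against 0.988, 1.93 and 3.64 CPM in WT sh-Gls2 livers, with no overlap (1.79 ± 0.24, adjusted p = 2.46e-07). Ifit2 (0.94 ± 0.16, adjusted p = 1.87e-05) and Rsad2 (0.90 ± 0.20, adjusted p = 5.63e-04) followed by adjusted p. Isg20, a 3′ exonuclease, was lower, at 1.32, 1.73 and 2.04 CPM in OTC sh-Gls2 livers, against 2.29, 2.85 and 3.69 CPM in WT sh-Gls2 livers, with no overlap (−0.75 ± 0.18, adjusted p = 0.00106). Mx1 and Isg20 were the 2 members without overlap (2.72% of all genes). Ifi35 was also lower (−0.20 ± 0.07, adjusted p = 0.0371), a call that was lost in 8 of 20 omissions (OTC sh-Gls2 mice 04, 24, 50, 60 and 74 and WT sh-Gls2 mice 08, 14 and 36, adjusted p up to 0.0905). Irf7 and Usp18, the members with the widest gap between control livers, differed by 0.70 ± 0.19, adjusted p = 0.00365 and 0.67 ± 0.20, adjusted p = 0.00945. The count of higher members was 9 without WT sh-Gls2 mouse 45, 18 without mouse 08 of that group, and 22 and 23 on the TPM scale, where the median of all genes was itself shifted by 0.14 and 0.12.

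The test of the difference itself asked whether sh-Gls2 changed a member by another amount in OTC than in WT livers. Usp18 was the only member called, with an effect of 0.30 in OTC and 1.77 in WT livers and a difference of −1.47 ± 0.30, adjusted p = 0.0129. Over all genes 0.338% were called (0.120% higher, 0.218% lower). The call of Usp18 was lost without OTC control mice 03 and 67 and with limma on log2(TPM + 1) (adjusted p up to 0.0694), and DESeq2 called 2 members. Of the 41 differences 10 were above 0, and 11 had an unadjusted p under 0.05. All of these 11 were below 0, a fitted effect smaller or more negative in OTC than in WT livers. The share of all genes by sign or at that unadjusted threshold is not given here. These counts are therefore not read as a result about the members as a set. Irf7 came next (−1.05 ± 0.27, adjusted p = 0.0722), then Oas1b (−0.87 ± 0.28, adjusted p = 0.18) and Irf9 (−0.45 ± 0.15, adjusted p = 0.18), none of them called. Ifit2 had the highest difference (0.48 ± 0.24, adjusted p = 0.447). For Oas2 (0.11 ± 0.30), Ifi27l2a (0.06 ± 0.34), Trim30a (0.07 ± 0.27) and Parp12 (0.02 ± 0.13) the difference was near 0. No member was called for the difference in the sh-Glud1 effect by edgeR or DESeq2, 1 (Trim25, 0.30 ± 0.13, adjusted p = 0.999) had an unadjusted p under 0.05, and 0% of all genes were called.

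The sh-Gls2 effect in WT livers and the OTC against WT difference under sh-Glud1 use no library in common, so the members can be sorted by both. Of the 36 members higher with sh-Gls2 in WT livers, 25 were also higher in OTC sh-Glud1 livers, which is 69.4% of the first list and 96.2% of the 26 in the second. Of all 41 members 63.4% were in the second list, and of the 2344 genes of any kind higher in the first comparison 23.1% were also higher in the second. Irf7, Usp18, Isg15, Ifit1, Oas1a, Cmpk2, Ifi44 and Ifi27 had log2 fold changes above 1 in both. The 11 members called between vectors and not between stocks were Isg20, Ifit2, Ifi35, Ifi27l2a, Oas2, Oas3, Bst2, Trim30a, Parp12, Uba7 and Epsti1. Of these Oas2 differed by 1.10 ± 0.20 between vectors and 0.26 ± 0.23 between stocks, Ifi27l2a by 1.54 ± 0.23 and 0.23 ± 0.26, and Epsti1 by 0.85 ± 0.20 and −0.16 ± 0.22. At the other side, Mx1 differed by 0.71 ± 0.26 between vectors and 1.67 ± 0.28 between stocks, and Rsad2 by 0.65 ± 0.20 and 1.09 ± 0.22. Irf9 was called between stocks and not between vectors. Whether the vector and stock effects on a member differ was not tested. Irf1, Stat2, Ifitm3 and Dtx3l were called in neither.

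**Figure D4:**
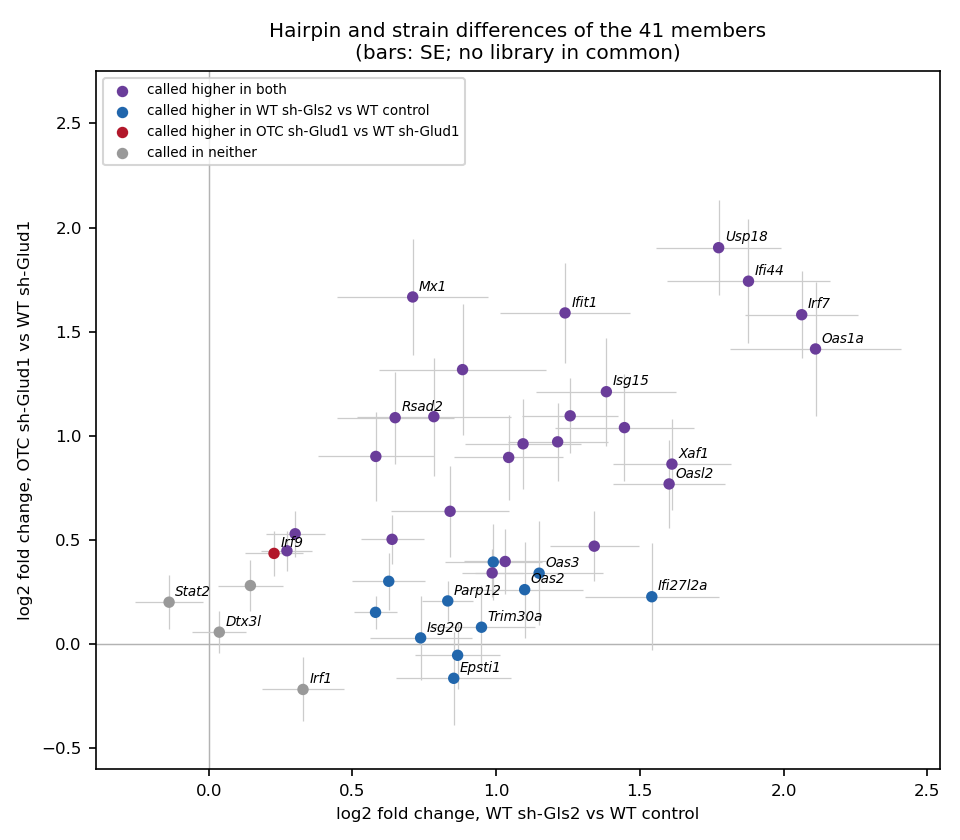
Log2 fold change of each member with sh-Gls2 in WT livers (x axis) and between OTC sh-Glud1 and WT sh-Glud1 livers (y axis), with SE bars and colour by call. Irf7, Usp18, Ifi44 and Oas1a are high on both axes, Oas2, Oas3, Ifi27l2a, Trim30a and Parp12 are high on the x axis alone, and Mx1 lies higher on the y axis.

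Upstream of these genes, 19 of 39 listed genes of interferon production and signalling passed the filter. None of the 19 interferon ligand genes did. Ifnb1 had 2 counts over all 55 libraries, Ifnk 4, Ifne 2 and Ifng 38 in 26 libraries, and the Ifna genes and the interferon lambda genes of the list had none. These counts are too few to compare groups. Of the 6 receptor genes, 4 were higher and 1 lower in OTC sh-Gls2 against OTC control livers, and 3 were higher and 1 lower in WT sh-Gls2 against WT control livers. Ifnar1, a chain of the type I receptor, was the lower one, at 36.6, 38.9 and 43.6 CPM in OTC sh-Gls2 livers, against 41.6, 42.4 and 45.1 CPM in OTC control livers (−0.12 ± 0.05, adjusted p = 0.0444). It lay at 36.5, 38.99 and 46.9 CPM in WT sh-Gls2 livers, against 42.7, 47.5 and 56.8 CPM in WT control livers (−0.26 ± 0.05, adjusted p = 3.51e-05). Ifnar2 was not called in either stock (−0.01 ± 0.06 in OTC, −0.11 ± 0.06 in WT livers). Ifnlr1, the receptor chain for interferon lambda, rose at a low level and lay at 0.0602, 0.706 and 1.24 CPM in OTC sh-Gls2 livers, against 0, 0.197 and 0.432 CPM in OTC control livers (1.72 ± 0.40, adjusted p = 4.11e-04). In WT livers it lay at 0.235, 0.619 and 1.47 CPM with sh-Gls2, against 0.0667, 0.115 and 0.336 CPM with control (1.99 ± 0.38, adjusted p = 3.96e-05). Ifnlr1 had 377 counts over all libraries, and no control liver reached the level that the filter asks for. It passed the filter through livers in which it was high, so its calls with sh-Gls2 are not independent of the filter. These calls are included in the counts of receptor genes above and of the 19 genes below. Il10rb, the partner of Ifnlr1 (0.36 ± 0.10 in OTC and 0.39 ± 0.10 in WT livers), and Ifngr1 of the interferon gamma receptor (0.38 ± 0.09 in OTC and 0.36 ± 0.08 in WT livers) were higher in both stocks.

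Of the 5 kinases and transducers, Jak1 was higher in OTC livers (0.22 ± 0.05, adjusted p = 2.64e-04) and not called in WT livers (0.10 ± 0.05, adjusted p = 0.0899). Stat3 was lower in both stocks (−0.20 ± 0.08 in OTC and −0.34 ± 0.08 in WT livers). None of the 4 tested inhibitors was called with sh-Gls2 in either stock, and Socs1 was below the filter with 268 counts. Of the 4 other factors of the Irf family in the list, Irf8, which macrophages also express, was higher in OTC livers (0.38 ± 0.15, adjusted p = 0.0406) and not called in WT livers (0.31 ± 0.15, adjusted p = 0.0996). Over the 19 genes, 6 were higher and 2 lower in OTC sh-Gls2 against OTC control livers, 4 higher and 2 lower in WT sh-Gls2 against WT control livers, and 3 higher and 4 lower in OTC control against WT control livers. As shares of the 19, these were 31.6% higher and 10.5% lower in OTC sh-Gls2 (all genes 20.2% and 22.6%), 21.1% and 10.5% in WT sh-Gls2 (all genes 17.6% and 17.2%), and 15.8% and 21.1% between the control groups (all genes 19.9% and 16.4%). Between the control groups Irf5 was lower in OTC control livers (−1.41 ± 0.27, adjusted p = 5.3e-05), at 1.96, 3.01 and 11.9 CPM in OTC control livers, against 3.7, 12.4 and 16.5 CPM in WT control livers.

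Markers of some other liver cells were higher with sh-Gls2. In OTC livers 6 of 7 Kupffer cell markers and 6 of 8 monocyte and macrophage markers were higher, and in WT livers 5 of 7 and 6 of 8. Of all genes 20.2% were higher in OTC and 17.6% in WT sh-Gls2 livers. The summed Kupffer markers ranged from 153 to 252 CPM in OTC sh-Gls2 and from 80.9 to 181 CPM in OTC control livers. In WT livers they ranged from 130.3 to 206 CPM with sh-Gls2 and from 95.9 to 148 CPM with control. Clec4f, which defines Kupffer cells, was higher by 0.59 ± 0.13 in OTC and 0.47 ± 0.12 in WT livers, and Cd68 of macrophages by 1.15 ± 0.13 in OTC and 1.01 ± 0.12 in WT livers. The summed monocyte and macrophage markers ranged from 58.1 to 111 CPM in OTC sh-Gls2 and from 31 to 68.9 CPM in OTC control livers, and from 57 to 98.7 CPM in WT sh-Gls2 and from 34.5 to 70.6 CPM in WT control livers. No Kupffer marker was at 0 in any library, and Ly6c2 was at 0 in 4 of 55. Their part in the sh-Gls2 result was not tested. In OTC control against WT control livers, 1 of 7 Kupffer markers was called higher and the other 6 were not called (median log2 fold change 0.22), and all 8 monocyte and macrophage markers had log2 fold changes above 0 (median 0.23) without a call. Of all genes 19.9% were called higher and 16.4% lower there. The part of these markers in the difference between stocks was not tested.

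Markers of dividing cells were also higher with sh-Gls2, 4 of 5 in OTC and 5 of 5 in WT livers, against 20.2% and 17.6% of all genes. Ccnb1, 1 of the 5, had 737 counts over all libraries and a count in 48 of 55. Its call in WT livers may therefore not be independent of the filter on low counts. Their sums ranged from 5.03 to 35.1 CPM in OTC sh-Gls2 and from 2.37 to 3.81 CPM in OTC control livers, and from 9.04 to 53.6 CPM in WT sh-Gls2 and from 2.29 to 7.49 CPM in WT control livers. Stellate cell markers were higher in 3 of 5 in OTC and 2 of 5 in WT livers, with summed levels of 107 to 162 CPM in OTC sh-Gls2, 51.2 to 103 CPM in OTC control, 81.4 to 155 CPM in WT sh-Gls2 and 76.3 to 108 CPM in WT control livers. Endothelial markers were higher in 4 of 5 in OTC and 1 of 5 in WT livers, at 144 to 220.3 CPM in OTC sh-Gls2, 120 to 165 CPM in OTC control, 135 to 186 CPM in WT sh-Gls2 and 115 to 184 CPM in WT control livers. The 1 of 5 in WT livers is near the share of all genes that were higher there. No tested marker of T, NK or B cells, of neutrophils or of conventional dendritic cells was called in these comparisons. Of the markers of plasmacytoid dendritic cells, a main source of type I interferon, 1 of 5 (Tcf4) passed the filter and was lower in WT sh-Gls2 livers. Tcf4 had 25155 counts over all libraries, against 232 for Siglech, 226 for Ccr9, 56 for Klk1 and 26 for Cox6a2. Its level is therefore not taken as a measure of these cells. Siglech was at 0 in 6 of 55 libraries. The part of these cell types in the interferon result was not tested either. Hepatocyte markers summed to 80594 to 107755 CPM in OTC sh-Gls2, 83115 to 128186 CPM in OTC control, 80850 to 120018 CPM in WT sh-Gls2 and 76112 to 119747 CPM in WT control livers. None of the 5 tested was higher with sh-Gls2, and 2 (Apoa1 and Serpina1c) were lower in OTC and 1 (Apob) in WT livers. Of all genes 22.6% were lower in OTC and 17.2% in WT sh-Gls2 livers.

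**Figure D5:**
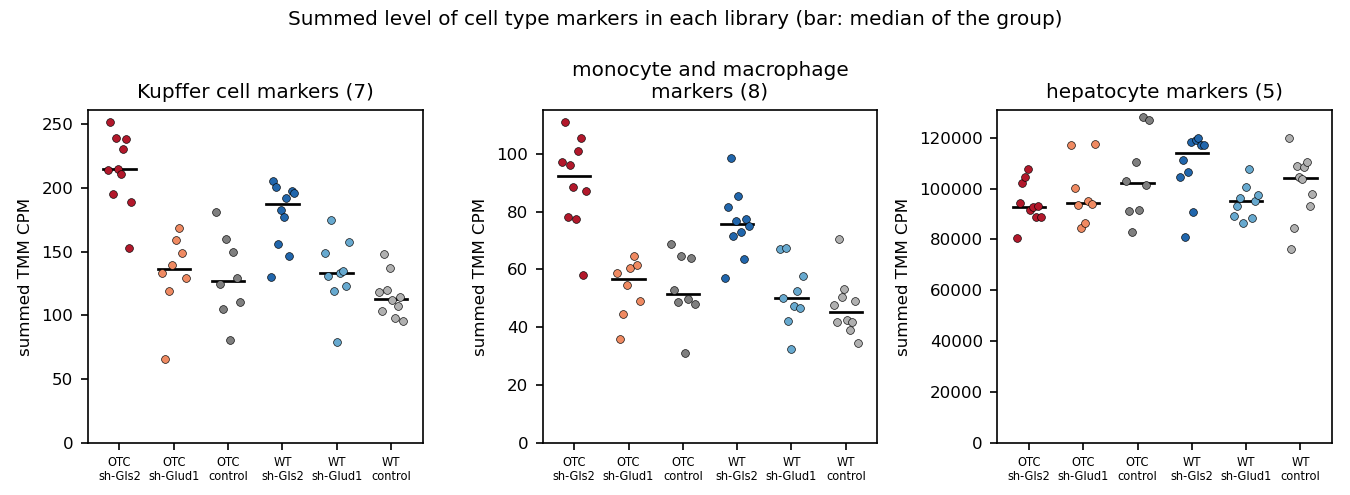
Summed CPM of Kupffer cell, monocyte and macrophage, and hepatocyte markers in each library (y axes from 0) by group (x axis); points are mice and bars are medians. The macrophage sums have higher medians with sh-Gls2 in both stocks, and the hepatocyte sums overlap between all groups.

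Of the libraries that stood apart, 3 also had the lowest Kupffer sums of their groups. The low sums were not particular to Kupffer cells. Each of these 3 libraries was also lowest in its group in the summed monocyte and macrophage, T cell, NK cell and stellate markers. The part of these sums in their member levels was not tested. WT sh-Gls2 mouse 45, with a member mean of 3.39 against 3.96 to 4.71 in the other 9 livers of its group, also had the lowest Kupffer sum (130.3 CPM) and monocyte and macrophage sum (57 CPM) of the group. OTC sh-Glud1 mouse 58, with a member mean of 3.14, had the lowest Kupffer sum of its group (66.1 CPM), and OTC control mouse 03, with 3.199, had the lowest of its group (80.9 CPM). WT sh-Gls2 mouse 08, with a member mean of 4.71, had a Kupffer sum of 192 CPM, within the range of its group. Without mouse 08, 32 members were higher in WT sh-Gls2 against WT control livers, and without mouse 45 it was 37.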

How the data were processed

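RNA was extracted from whole livers and libraries were made with a stranded mRNA kit, per the labels' protocols. CASAVA 1.8.2, FastQC and the build GRCm38 are named in the submitters' processing notes. The aligner, the gene annotation, the counting tool and its strand setting are not given in the sources used here. The authors deposited raw counts for each gene and library, and a second table of TPM that they made from the same libraries.

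The 41 members, the roles and the other lists were chosen with earlier results of these data known. One edgeR model with 6 group terms took the counts of all 55 libraries (edgeR 4.0.16, R 4.3.3), with TMM factors and a filter of at least 10 counts in enough libraries and 15 in all. This left 13311 of 24475 genes, and 4775 symbols had no count. A quasi-likelihood F test gave the p-values, adjusted by Benjamini-Hochberg over all tested genes and called below 0.05. Counts of members at an unadjusted p under 0.05 are given without the share of all genes at that threshold. Standard errors of a log2 fold change were obtained from that fold change and its F value, and values after ± beside one are such standard errors. The 11 comparisons were sh-Gls2 and sh-Glud1 against control and against each other in each stock, OTC against WT for each vector, and the differences of the sh-Gls2 and sh-Glud1 effects between stocks. Alternatives were DESeq2 1.42.0, limma 3.58.1 on log2(TPM + 1) and log2(TPM + 0.1), other filters and scalings, and the omission of libraries. The script was tested on simulated data.

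Each library is a separate mouse. Within groups, 227 pairs of libraries were compared, and none agreed within sampling noise (smallest chi-square per degree of freedom 11.7). The name of 1 column, an OTC control, did not match a sample title. It is called the unnumbered mouse and enters as a library of its group. Examples of each role were fixed and given with their levels, and each comparison adds the members with the smallest adjusted p and the largest and smallest fold change. Annotation of overlapping genes came from GENCODE, and promoters from RefSeq. The single values of 1 listed signalling gene are not reported here, and it stays in the counts of its list.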

Additional observations from a re-analysis of the deposited data

Results flagged for a closer look

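In 16 of 192 groups of 8 to 10 values examined, 1 library stood far from the rest by Dixon's criterion. The values were the mean of the members, and single members, in 6 groups of libraries. Chance alone meets the criterion in about 1 of 20 independent groups. These groups share libraries and are not independent, and Phf11d was added after its values were seen. The count of 16 can therefore not be set against that rate. WT sh-Gls2 mouse 08 was far above its group in 7 members, at 33.5937 CPM for Isg15, 36.4079 CPM for Ifit1, 21.0474 CPM for Oas1a, 13.3085 CPM for Oasl2, 39.1048 CPM for Rsad2, 71.5846 CPM for Parp9 and 37.1114 CPM for Rtp4. In the same group, mouse 78 was far from the others for Trim25, at 71.557 CPM. OTC sh-Glud1 mouse 58 was far below its group in the mean over the members, at 3.14357 on the log2 scale, and far above it for Phf11d (9.76515 CPM). OTC control mouse 03 was far below its group for Irf9 (29.4517 CPM) and Dtx3l (33.0184 CPM) and far above it for Phf11d (10.0514 CPM), and OTC control mouse 67 for Usp18 (28.2645 CPM). WT sh-Glud1 mouse 40 stood apart for Irf1 (15.8923 CPM), and WT control mouse 19 for Irf7 (25.1655 CPM).

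The effect of sh-Gls2 on Usp18 differed between the stocks by the test of the difference itself, with a log2 difference of −1.47018 (OTC minus WT).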

How the results depend on the processing

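Of 186 calls of members in the 11 comparisons, 186 were kept with DESeq2's size factors, with its Wald test and with a filter of 1 CPM in 8 libraries, 184 with mouse number as a covariate, 179 without a filter and 180 with only the compared groups. Limma kept 175 of 182 on log2(TPM + 1) and 179 of 182 on log2(TPM + 0.1). No call changed sign in any of these or in the omissions, and sh-Glud1 against control stayed at 0 calls throughout. TPM shifted the median of all genes between stocks by 0.101 to 0.178 on the log2 scale. In OTC sh-Gls2 against WT sh-Gls2, the higher members numbered 23 with log2(TPM + 1) and 22 with log2(TPM + 0.1), against 14 with counts, and the lower ones 1 with either, and 1 with the covariate, against 2. The lower member of OTC sh-Gls2 against OTC control became 0 with either TPM scale and 2 with only the compared groups, and that of OTC sh-Gls2 against OTC sh-Glud1 became 2 with the covariate. The single difference in the sh-Gls2 effect became 2 with DESeq2 and with the covariate, and 0 with log2(TPM + 1), without OTC control mice 03 and 67, and without these and WT control mouse 13. Those 3 mice were left out because an earlier account of these data named them; without all 3, 25 members were higher in OTC sh-Gls2 against OTC control and 27 in OTC against WT control livers. The causes were not tested.

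Leaving out 1 library at a time, the higher members numbered 26 to 30 for OTC sh-Gls2 against OTC control, 32 to 37 for WT sh-Gls2 against WT control, 18 to 21 and 30 to 35 for sh-Gls2 against sh-Glud1 in OTC and WT livers, 23 to 28 for OTC against WT control, 24 to 30 for OTC against WT sh-Glud1 and 9 (without WT sh-Gls2 mouse 45) to 18 (without mouse 08) for OTC against WT sh-Gls2. The lower members numbered 0 to 2 for OTC sh-Gls2 against OTC control, 1 to 3 for OTC sh-Gls2 against OTC sh-Glud1, 0 to 1 for OTC against WT control, 1 to 2 for OTC against WT sh-Gls2 and 1 to 2 for the difference in the sh-Gls2 effect. No paired analysis was possible because every mouse number belongs to 1 mouse. Members of low level, such as Oas3, Oas2 and Mx1, rest on few counts per library, which limits the precision of their values.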
